A study of Saccharomyces cerevisiae with 116 samples.

Results

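The genes described here are 10 genes of budding yeast (Saccharomyces cerevisiae) whose transcripts are known to follow oxygen and heme: CYC1 (YJR048W), CYC7 (YEL039C), HEM13 (YDR044W), ANB1 (YJR047C), AAC3 (YBR085W), ROX1 (YPR065W), MOT3 (YMR070W), DAN1 (YJR150C), TIR1 (YER011W) and TIP1 (YBR067C). They were taken by identifier from the 7126 features of the deposited count files, and all 10 had reads and passed the filter on low counts in the class comparisons. RNA was sequenced in 116 libraries of diploid mutation accumulation lines, which descend from 1 ancestor through repeated single-cell bottlenecks, and of their ancestors. The study compared lines that carry chromosome gains or losses (aneuploid) with lines that do not (euploid).

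In the experiment named HH, the ancestor was a homozygous diploid of S288C descent with the alleles ura 3-52, leu2-3.112 and lys2-801, and with his3-delta-D200, ade2 and ho, as the labels spell them. Its lines were kept for 2063 generations, and 10 aneuploid and 11 euploid lines were sequenced. In the experiment named Hh, the ancestor was a heterozygous diploid from a cross of NCYC 3631, a derivative of the oak isolate YPS606, with NCYC3596, a derivative of DBPVG1106, and carried ho and ura3. Its lines were kept for 2108 generations, and 10 aneuploid and 5 euploid lines were sequenced. From each line 3 colonies were cultured in liquid YPD, a rich glucose medium, at 30 °C and taken in log phase. The Hh ancestor was read in 3 libraries, and the HH ancestor in 3 libraries of a first run and 2 of a second. The series text counts 12 euploid HH and 6 euploid Hh lines, 1 more in each experiment than the labels give. The HH library names fall into 2 series, SC with 14 lines and X with 7, and these were taken to follow the runs of the ancestor, a link that the labels do not state. No oxygen or heme treatment is named in the labels.

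By label, the aneuploid HH lines carried 3 copies of chromosome IX (HH15, HH88 and HH119), V (HH117 and HH123), XIV (HH9) or XVI (HH112), 3 copies each of I and VII (HH152), a single copy of IX (HH29), or 3 copies of VIII with a single copy of IX (HH108). The aneuploid Hh lines carried 3 copies of V (Hh4 and Hh49), I (Hh7 and Hh18), VII (Hh59 and Hh61) or XII (Hh77), 4 copies of XVI (Hh8), 3 copies of XV with a single copy of I (Hh11), or 3 copies each of IX and XIV with a partial change of X (Hh76). The aneuploid class is therefore a mixture of different chromosomes.

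Respiring yeast makes heme with the help of molecular oxygen, and heme in turn reports oxygen to the nucleus. With heme present, the activators Hap1 and Hap2/3/4/5 turn on respiratory genes, and the repressor Rox1, itself made under Hap1, keeps the hypoxic genes silent together with Mot3 and the corepressor Tup1-Cyc8. Several proteins exist as a pair of forms encoded by an aerobic and a hypoxic gene: iso-1 and iso-2 cytochrome c (CYC1 and CYC7), translation factor eIF5A (HYP2 and ANB1), the mitochondrial ADP/ATP carrier (PET9 and AAC3) and subunit V of cytochrome c oxidase (COX5A and COX5B). At the cell surface, the mannoproteins of aerobic cells such as TIP1, CWP1 and CWP2 give way to those of the DAN and TIR families when oxygen is lost.

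CYC1, an aerobic member, and ANB1, a hypoxic one, are neighbours. In the R64 genome CYC1 lies at chrX:526335-526664 on the plus strand and ANB1 at chrX:524908-525381 on the minus strand, so they are read away from each other across 953 bases that hold no other annotated gene. The 300 bases before the start codon are shown for this pair, and for HEM13 and AAC3 as further members on which Rox1 is known to act, because they differ in copies of the Rox1 core. Each is written on its gene's own strand, 5′ to 3′ and ending at the base before the start codon, with every ATTGTT or, for the other strand, AACAAT in capitals.
CYC1, chrX:526035-526334, plus strand: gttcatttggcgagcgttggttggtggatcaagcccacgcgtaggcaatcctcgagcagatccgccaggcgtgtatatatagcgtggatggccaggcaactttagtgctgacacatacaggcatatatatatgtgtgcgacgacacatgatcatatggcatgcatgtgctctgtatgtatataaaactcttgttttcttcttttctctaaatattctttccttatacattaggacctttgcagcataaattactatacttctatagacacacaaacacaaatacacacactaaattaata
ANB1, chrX:525382-525681, minus strand: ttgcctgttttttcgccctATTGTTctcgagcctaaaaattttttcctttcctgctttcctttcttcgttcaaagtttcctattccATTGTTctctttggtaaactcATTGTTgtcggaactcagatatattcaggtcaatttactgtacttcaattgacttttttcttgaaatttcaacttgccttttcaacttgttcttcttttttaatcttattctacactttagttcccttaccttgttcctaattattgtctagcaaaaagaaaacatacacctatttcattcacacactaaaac
HEM13, chrIV:546342-546641, plus strand: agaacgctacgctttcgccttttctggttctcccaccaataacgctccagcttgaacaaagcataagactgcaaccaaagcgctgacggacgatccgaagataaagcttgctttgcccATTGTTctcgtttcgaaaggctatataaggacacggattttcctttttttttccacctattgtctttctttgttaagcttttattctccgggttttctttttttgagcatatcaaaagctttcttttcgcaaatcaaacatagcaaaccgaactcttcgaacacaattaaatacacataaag
AAC3, chrII:415683-415982, plus strand: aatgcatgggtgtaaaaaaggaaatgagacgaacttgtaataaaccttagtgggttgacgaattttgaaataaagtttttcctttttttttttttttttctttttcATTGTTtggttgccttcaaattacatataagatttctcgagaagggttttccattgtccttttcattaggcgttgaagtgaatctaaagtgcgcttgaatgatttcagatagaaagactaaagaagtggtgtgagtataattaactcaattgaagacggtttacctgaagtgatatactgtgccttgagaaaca
In these windows ANB1 held 3 copies of the core, HEM13 and AAC3 held 1 each and CYC1 held 0. Over all genes, 34.1% of 6001 windows of 300 bases held at least 1 copy. The longer form ATTGTTCTC was present in 0.783% of those windows. It occurred in ANB1 at 281 and 214 bases before the start codon and in HEM13 at 182 bases before it.

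Windows of 600 bases were searched for all 10 genes on both strands. ATTGTT was found 4 times before ANB1, 3 times before HEM13, 2 times each before ROX1, DAN1, TIR1 and TIP1, and 1 time each before AAC3 and MOT3, while CYC1 and CYC7 had 0 copies. Of all 5999 windows of that length, 54.9% held the core and 1.3% the longer form, which contains it. TCGTATA, the core of the anaerobic element bound by Upc2, was found before CYC7, DAN1 and TIR1, and in 8.58% of all windows. The Hap1 pattern was in 0.533% of all windows and before none of the 10 genes. CCAAT, the core bound by Hap2/3/4/5, was in 70.3% of all windows, with 4 copies before TIP1, 2 each before CYC7 and ROX1 and 1 each before HEM13 and AAC3. These matches describe letters in a window and are not measured sites.

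Levels within a library can be compared between genes only per length, for which the deposited FPKM values were used. In Hh euploid lines CYC1 stood at 11477 ± 2306 FPKM (SD, n = 5) and CYC7 at 4850.4 ± 1949.8. CYC1 thus stood above 99.8% of all features there. ROX1 stood at 235 ± 34.8 FPKM, HEM13 at 169 ± 17.3 and TIP1 at 561 ± 573 in the same lines. MOT3 at 27.3 ± 4.30, ANB1 at 7.86 ± 2.00, TIR1 at 4.41 ± 1.22, AAC3 at 3.21 ± 0.906 and DAN1 at 1.06 ± 0.280 FPKM formed a low group. The set therefore held 2 cytochrome c genes near the top of the transcriptome and hypoxic and anaerobic genes far below them. In HH SC euploid lines CYC1 was at 2522 ± 607 FPKM (SD, n = 9) and CYC7 at 2032 ± 948, so the pair lay closer together than in Hh.

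Libraries held 4129372 to 12148296 reads in genes, and the share of reads without a unique alignment was 7.12% to 68.4%. HIS3, whose allele the HH label names, had 0 to 26 counts in HH libraries and 467 to 2504 in Hh libraries. URA3, named in both labels, had 0 to 2 counts in Hh libraries and 112 to 1017 in HH libraries. The HH allele of URA3 is known as an insertion that leaves URA3 sequence in place, so reads there do not check that label. In 9 libraries (all 3 of HH152 and of Hh18, and colony 1 of HH123, Hh11 and Hh59) the levels of genes along a chromosome went against the label, and these are called doubted below. The labelled gain of VII in HH152 and Hh59, of V in HH123 and of XV in Hh11 was not seen, and an unlabelled gain was seen of VIII in HH152 and of XII in Hh11 and Hh18. Class differences, isoform ratios and correlations over lines are given with and without the doubted libraries, and no called pair of a gene and a single line lies in a line that holds one. ANB1 shares long stretches with HYP2, and AAC3 with PET9 and AAC1, so reads could be lost or divided between these copies and their levels are uncertain. In bulk cultures, fewer cells with a transcript and less of it per cell cannot be told apart.

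Values below are CPM, counts scaled to the reads in genes of a library, with the 3 colonies of a line summed so that the line is the replicate of a class. Differences are log2 values ± SE from edgeR's quasi-likelihood test with TMM scaling, and a gene is called at an adjusted p below 0.05, with Benjamini-Hochberg adjustment over all genes tested. The labels do not say whether colonies of a line come from separate isolates of it, so tests between lines and ancestors measure only the spread between colonies.

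In the Hh experiment, 4 of the 10 genes differed between aneuploid and euploid lines: MOT3, CYC7 and AAC3 were lower and TIP1 was higher in the aneuploid lines. These calls rested on few libraries. Without the third colony of Hh1, a euploid line, none of the 10 genes and 0 of 6182 genes were called by edgeR, with 1227 at an unadjusted p below 0.05. In the full comparison the background was 9.87% of 6189 genes called, 4.22% higher and 5.66% lower. The 10 genes were chosen with earlier results of these data known, so this background does not test them as a set. Of the 10 genes, 8 had negative and 2 positive differences, with a median of −0.47, against 0.04 over all genes tested. Plain total-count scaling moved the median of all genes to −0.13 and the split of calls from 261 higher and 350 lower to 113 and 777, whereas TMM from unaltered chromosomes gave 340 and 274. The sign of the difference was the same under both of these scalings for each of the 10 genes.

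MOT3, a zinc finger repressor that acts with Rox1, had 37.4, 55.9, 51.4, 48.8 and 43.8 CPM in the euploid lines Hh1, Hh2, Hh3, Hh5 and Hh9. In the 10 aneuploid lines it ranged from 16.7 in Hh11 to 33.6 in Hh8, with a median of 19.99. Every aneuploid line lay below every euploid line, which was the case in either direction for 0.975% of 5949 genes. The colonies of Hh1 read 23.3, 22.7 and 65.9 CPM, so without the third the line stood at 22.9, inside the aneuploid range, and the first colony of Hh9 was at 22.1. The difference was −0.90 ± 0.14 (edgeR adjusted p = 0.00293). It was called after leaving out any 1 line or colony number, the 9 doubted libraries, or any 1 of the 45 Hh libraries except the third colony of Hh1, without which it was −0.82 ± 0.17 (edgeR adjusted p = 0.123). The Hh ancestor, at 18.5, 31.6 and 26.9 CPM, lay within the range of the aneuploid lines and below the euploid ones.

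ROX1, the heme-dependent repressor, had 258, 273, 296, 297 and 204 CPM in the euploid lines in the same order, and 125 to 379 in the aneuploid lines with a median of 155. The ranges overlapped through Hh8, the highest of all 15 lines, while the other 9 aneuploid lines, at 125 to 181, lay below every euploid line. The difference of −0.48 ± 0.19 was not called (edgeR adjusted p = 0.0995). Hh8 carries 4 copies of chromosome XVI, on which ROX1 lies, but its second colony read 128 CPM with XVI also nearest to 4 copies. Without this line the ROX1 difference was −0.63 and was called (edgeR adjusted p = 0.00231). Leaving out Hh8 also raised the number of calls over all genes. With an offset for copy number the ROX1 difference was −0.62 (edgeR adjusted p = 0.00784), where 918 genes were called in place of 611. The part of copy number in these calls was not tested.

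CYC7, the hypoxic cytochrome c, had 1082, 734, 1151, 1623 and 633 CPM in the euploid lines. In the aneuploid lines it ranged from 84.1 in Hh61 to 977 in Hh8, with a median of 197. The ranges overlapped in Hh8 alone, since Hh11, next at 630.4, was just below the lowest euploid line. The difference was −1.59 ± 0.45 (edgeR adjusted p = 0.0393). CYC1, the aerobic form, had 1693, 2253, 2385, 2399 and 1594 CPM in the euploid lines and 931 to 1624 in the aneuploid lines, with a median of 1412. Only Hh77, at 1624, stood above a euploid line (Hh9). Its difference of −0.46 ± 0.15 was not called (edgeR adjusted p = 0.0586), although it was under total-count scaling (−0.63), a copy number offset (−0.46) and DESeq2 (−0.46). Both cytochrome c genes thus had negative differences, and that of CYC7 was the larger in size.

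AAC3, the hypoxic ADP/ATP carrier, had 1.63, 3.44, 2.80, 3.32 and 3.20 CPM in the euploid lines. In the aneuploid lines it ranged from 0.164 in Hh49 to 2.01 in Hh8, with a median of 0.84. Hh8 and Hh18 stood above the lowest euploid line, Hh1, and the other 8 were below all euploid lines. The difference was −1.42 ± 0.39 (edgeR adjusted p = 0.0346). ANB1, the hypoxic eIF5A, had 2.28 to 3.86 CPM in the euploid lines and 1.91 to 10.5 in the aneuploid lines, which overlapped, with a difference of 0.79 ± 0.39 (edgeR adjusted p = 0.171). HEM13, coproporphyrinogen oxidase of heme synthesis, had 143 to 186 and 106 to 167 CPM, and its difference was −0.04 ± 0.12 (edgeR adjusted p = 0.848). Of these hypoxic genes, CYC7 and AAC3 were called lower and ANB1 and HEM13 were not called, and a difference between genes was not tested.

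TIP1, a mannoprotein of the aerobic wall, had 746, 139.8, 88.9, 97.2 and 539.8 CPM in the euploid lines. In the aneuploid lines it ranged from 374 in Hh77 to 1845 in Hh49, with a median of 1198. Hh1 and Hh9 overlapped the aneuploid range, and the other 3 euploid lines were below all aneuploid lines. The difference was 1.99 ± 0.57 (edgeR adjusted p = 0.0393). TIR1, a mannoprotein of the anaerobic wall, had 2.51 to 4.43 CPM in the euploid lines and 0.877 to 6.63 in the aneuploid lines, with a difference of −0.61 ± 0.33 (edgeR adjusted p = 0.21). Hh8 again was the highest, and without it the difference was −0.90 and was called (edgeR adjusted p = 0.0131). DAN1, of the same class, had a mean of 1.02 ± 0.228 CPM (SD, n = 5) and 0.852 ± 0.428 (SD, n = 10), and a difference of −0.09 ± 0.32 (edgeR adjusted p = 0.867).

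**Figure D1:**
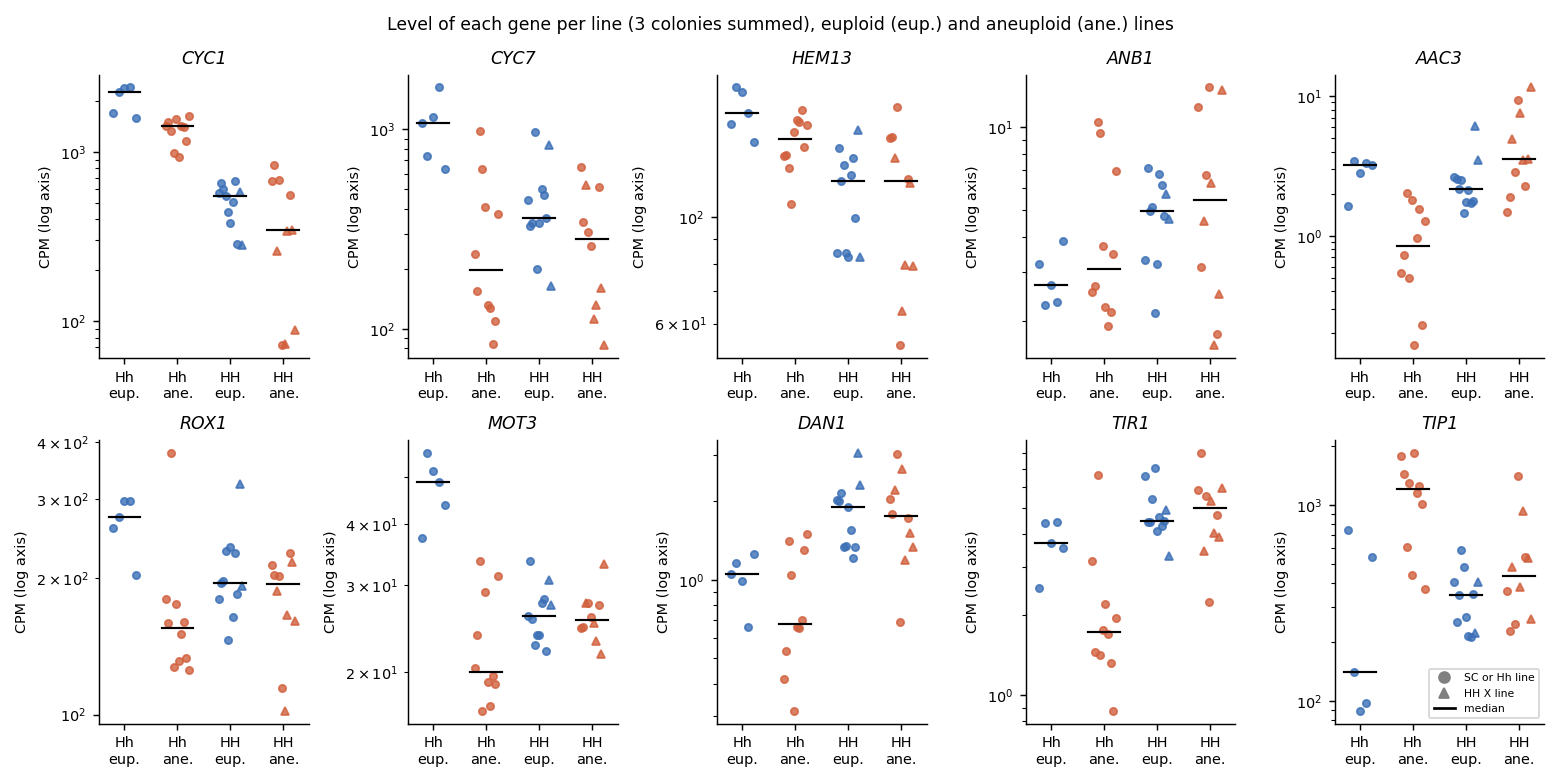
Level of each of the 10 genes in each line, in CPM on a log axis, for euploid and aneuploid lines of HH and Hh. Circles are Hh or HH SC lines, triangles HH X lines and bars medians, and MOT3 is the gene whose Hh classes are apart (37.4 to 55.9 against 16.7 to 33.6 CPM).

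The calls of CYC7, AAC3 and TIP1 depended on which lines entered. Without the doubted libraries MOT3 alone was called, while AAC3 stood at −1.56 (edgeR adjusted p = 0.0774), CYC7 at −1.56 (0.0825) and TIP1 at 2.16 (0.0619). MOT3 was also the 1 gene called without Hh2, Hh3, Hh5, Hh7, Hh59 or the second colonies. Of the 10 genes, 2 were called without Hh49, Hh61, Hh76 or the first colonies, and 7 without Hh8. Calls over all genes moved too, from 611 of 6189 in the full comparison to 53 without the doubted libraries. They rose without Hh8 and fell without Hh5, with counts given in the section on processing. The changing number of members called is therefore not shown to be particular to these genes. With each of the 45 Hh libraries left out in turn, an alternative chosen after seeing the data, AAC3 and TIP1 were called in 40 fits each, CYC7 in 38, CYC1 in 11, ROX1 in 2 and TIR1 in 1, while HEM13, ANB1 and DAN1 were called in 0. Without the third colony of Hh1, AAC3 stood at −1.30 (edgeR adjusted p = 0.165), CYC7 at −1.33 (0.174) and TIP1 at 1.59 (0.182). Over the fits without a line or a colony number, the differences stayed between −1.35 and −1.77 for CYC7 and between 1.59 and 1.99 for TIP1 wherever the call was lost.

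The other genes of the regulon were 43 genes on 7 lists, of which 42 were tested. The lists were written with earlier results of these data known, so their shares of calls do not test the regulon as a set. In Hh aneuploid lines 1 was higher and 7 were lower, against 4.22% and 5.66% of all genes. Without the doubted libraries, where 53 genes were called in all, UPC2 was the 1 listed gene called (−0.86, edgeR adjusted p = 0.0497), and without the third colony of Hh1 it was 0 of 42. Among 12 regulators, 4 were lower: HAP3 (−0.80 ± 0.17, edgeR adjusted p = 0.0188) and HAP5 (−0.44 ± 0.13, 0.0403), subunits of the CCAAT-binding activator, HAP1 (−0.50 ± 0.15, 0.042), the heme-responsive activator, and UPC2 (−0.80 ± 0.18, 0.0215), the sterol-sensing activator of DAN and TIR genes. Among 7 genes of heme synthesis, HEM3 (−0.59 ± 0.13, 0.0188) and HEM12 (−0.53 ± 0.16, 0.0488) were lower. Among 5 heme-activated genes CYC3, which encodes the lyase that attaches heme to cytochrome c, was lower (−1.11 ± 0.29, 0.032). CWP1, a wall mannoprotein like TIP1, was higher (1.52 ± 0.40, 0.0326), and its companion CWP2 stood at 1.10 (0.0902). None of 6 DAN and TIR wall genes, 4 oxygen-requiring lipid enzymes or 6 tested isoform partners was called. Of these partners, COX5B stood at −1.11 (edgeR adjusted p = 0.067), AAC1, a further ADP/ATP carrier, at 0.57, HMG1, one of a pair of HMG-CoA reductases, at 0.35, COX5A at 0.22, PET9 at −0.11 and HMG2, the other reductase, at −0.0035. Regulators had a median of −0.35 and DAN and TIR genes of −0.22, against 0.04 over all genes.

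Within a library, the ratio of an aerobic to a hypoxic form does not depend on scaling. The ratio of PET9 to AAC3 was 10.96 ± 1.13 on the log2 scale in Hh aneuploid lines (SD, n = 10) and 9.39 ± 0.21 in euploid lines (SD, n = 5), higher by 1.57 (two-sided exact permutation p = 0.00266, 0.0213 adjusted over 8 tests). Aneuploid lines ran from 9.43 to 12.80 and euploid lines from 9.04 to 9.56, so the ranges overlapped only at their edge. The highest, Hh49, held 0, 2 and 1 reads of AAC3 in its colonies. Without the third colony of Hh1, AAC3 of that line stood at 0.266 CPM in place of 1.63. The ratio was not computed without that colony, so how far the overlap and the call depend on it was not tested. Without Hh5 or Hh9 the adjusted exact p was 0.0639, and without the doubted libraries the difference was 1.93 (adjusted exact p = 0.032). The ratio of CYC1 to CYC7 was 2.47 ± 1.204 against 1.04 ± 0.45 (difference 1.43, exact permutation p = 0.0273, adjusted 0.0728), and that of COX5A to COX5B 5.74 ± 1.14 against 4.30 ± 0.57 (difference 1.44, exact permutation p = 0.0266, adjusted 0.0728). Neither passed after adjustment, nor without the doubted libraries, at 1.47 and 1.44 (adjusted exact p = 0.107 each). Without Hh8 both did, at 1.65 (adjusted exact p = 0.0213) and 1.73 (0.00799), and CYC1 to CYC7 also did without Hh11 (1.63, 0.044).

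HYP2 had 0 counts in all 116 count files but 405 to 11264 FPKM in the deposited FPKM table, so its ratio to ANB1 was taken from FPKM. It was 9.03 ± 0.81 in aneuploid and 9.09 ± 0.29 in euploid Hh lines (exact permutation p = 0.913). In HH none of the 4 ratios passed the test between classes, with differences of −0.10 for CYC1 to CYC7, 0.00 for HYP2 to ANB1, −0.66 for PET9 to AAC3 and −0.41 for COX5A to COX5B, and permutation p-values within the name series of 0.819, 0.994, 0.329 and 0.349. In HH the ratio of CYC1 to CYC7 was 0.29 ± 0.65 in euploid lines (SD, n = 11) and 0.17 ± 1.09 in aneuploid lines (SD, n = 10), near parity of the cytochrome c transcripts.

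**Figure D2:**
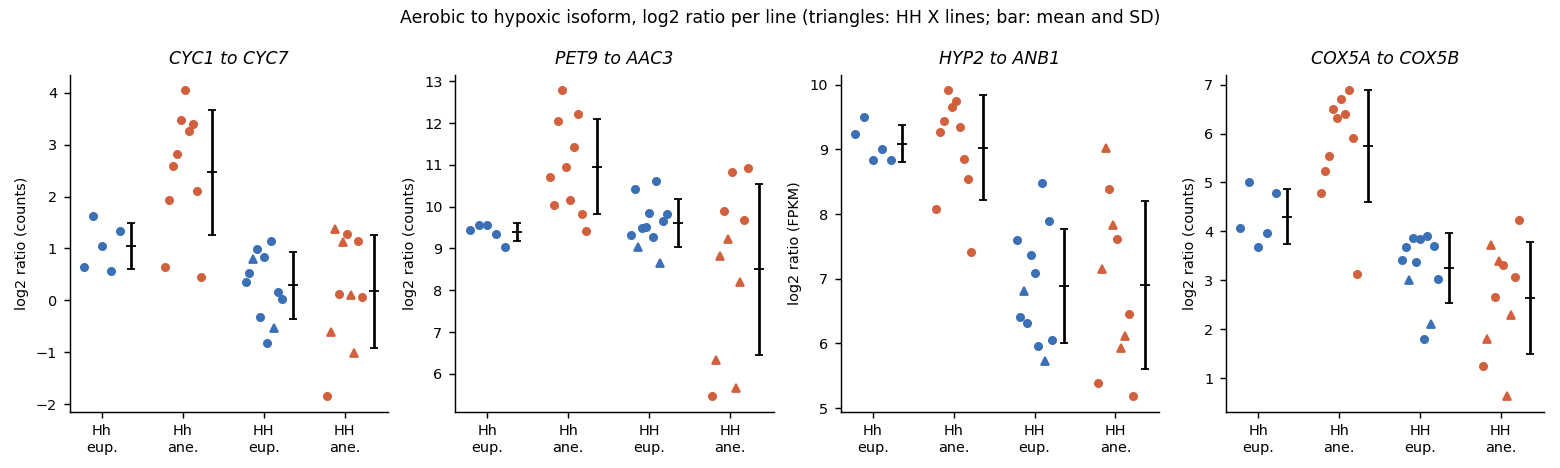
The log2 ratio of the aerobic to the hypoxic form in each line for 4 isoform pairs, by experiment and class, from counts or, for HYP2 to ANB1, FPKM. Bars give mean and SD and triangles HH X lines. In Hh the ratio of PET9 to AAC3 was 10.96 in aneuploid and 9.39 in euploid lines.

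In HH, none of the 10 genes was called between aneuploid and euploid lines, and neither was any of 6130 genes by edgeR (background 0.0%), with 601 at an unadjusted p below 0.05 and 1 call by DESeq2. Without the doubted libraries none of the 10 was called either, with TIP1 at 0.76 and AAC3 at 0.57. CYC1 ranged from 283 to 676 CPM with a median of 551 in the 11 euploid lines, and from 71.9 to 841 with a median of 343 in the 10 aneuploid lines. The aneuploid range enclosed the euploid one. The largest differences were 0.68 ± 0.31 for TIP1 and 0.64 ± 0.29 for AAC3, both with an edgeR adjusted p of 0.502. Smaller ones were 0.48 for ANB1, −0.45 for CYC7, −0.22 for ROX1, −0.21 for CYC1, −0.09 for DAN1, 0.08 for TIR1 and 0.05 for HEM13 (edgeR adjusted p of 0.602 to 0.94). The isoform partners stood at −0.31 for COX5B, −0.29 for COX5A, −0.24 for AAC1, −0.04 for HMG2, −0.03 for PET9 and 0.25 for HMG1. MOT3 had 22.1 to 33.6 CPM in euploid and 21.7 to 33.1 in aneuploid lines, and a difference of −0.05 ± 0.09 (edgeR adjusted p = 0.837). The ranges of all 10 genes overlapped, as did those of every gene compared (0.0% apart).

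The class differences of Hh and HH were then compared directly, with 5.1% of 6357 genes called. AAC3 differed by −2.05 ± 0.49 (edgeR adjusted p = 0.0166), from −1.42 in Hh to 0.64 in HH, and MOT3 by −0.82 ± 0.16 (edgeR adjusted p = 0.00509), from −0.90 to −0.05. Both were called after leaving out any 1 line or colony number and under each other setting tried, except that without the third colony of Hh1 AAC3 was not called (−1.94, edgeR adjusted p = 0.075), while MOT3 was just called (−0.77, 0.0478). For TIP1 the difference was 1.32 ± 0.61 (edgeR adjusted p = 0.187) and for CYC7 −1.12 ± 0.60 (0.255), so an effect of CYC7 or TIP1 in Hh alone was not shown. The others stood at −0.67 for TIR1, 0.33 for ANB1, −0.23 for ROX1, −0.22 for CYC1, −0.05 for HEM13 and 0.03 for DAN1 (edgeR adjusted p of 0.257 to 0.977). None of the isoform partners was called, with 0.84 for AAC1, −0.79 for COX5B, 0.55 for COX5A, 0.13 for HMG1, 0.06 for HMG2 and −0.05 for PET9. Of the other listed genes, UPC2 (−0.89, edgeR adjusted p = 0.0075), HEM12 (−0.95, 0.0103) and HEM3 (−0.59, 0.0334) were lower and CYB2, a heme-activated lactate dehydrogenase, was higher (1.17, 0.0314).

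Set against their ancestor, the Hh euploid lines all lay on 1 side of it in some of the 10 genes, with calls in Hh5 alone. HEM13, ANB1 and DAN1 lay on both sides. The share of all genes for which every euploid line lay on 1 side was not counted, so this is not shown to be particular to these genes. All 5 euploid lines were above the ancestor in CYC7 (median 2.13), AAC3 (1.51), CYC1 (0.91), ROX1 (0.74), MOT3 (0.73) and TIR1 (0.69), and all 5 were below it in TIP1 (−3.78). The 10 aneuploid lines lay on both sides of the ancestor, with medians of −0.10 for CYC7 (5 above and 5 below), −0.25 for AAC3 (4 above), 0.35 for CYC1 (8 above), 0.13 for ROX1 (7 above), −0.29 for MOT3 (3 above) and −0.53 for TIP1 (2 above). Hh1 and Hh9 were carried by some of their colonies: CYC7 read 118 and 236 CPM in the first 2 colonies of Hh1 and 166 in the first of Hh9, and AAC3 read 0.856, 0 and 0.579 there, within or below the ranges of the ancestor colonies. Without the third of these colonies Hh1 stood at 199.6 CPM of CYC7 and 1113 of TIP1. These lines share 3 ancestor libraries, so 1 unusual library there would move all of them together. The ancestor colonies read 241.6, 210.5 and 149 CPM in CYC7 and 1613, 1602 and 2148 in TIP1, below all euploid lines in the first gene and above all of them in the second.

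Single lines seldom passed a test. Of 360 pairs of a gene and a line, 14 were called, 7 higher and 7 lower, against a background of 3.21% of all 219479 pairs. HH108, with 3 copies of chromosome VIII and 1 of IX by label, gave 7 of these and was a line in which 48.5% of genes were called. In its 3 colonies CYC1 read 49.4, 115 and 47.2 CPM against 708, 459.5 and 607 in the ancestor, and AAC3 read 9.02, 8.91 and 10.2 CPM against 1.05, 0.339 and 0.306. Colonies and ancestor did not overlap in either gene, but the share of all genes for which this holds was not counted. AAC3 rested on 7, 2 and 2 reads in the ancestor libraries. The differences were −3.09 ± 0.57 for CYC1 (edgeR adjusted p = 4.0e-05), 3.94 ± 0.59 for AAC3, 2.13 ± 0.65 for ANB1, 1.66 ± 0.58 for TIP1, −1.54 ± 0.41 for CYC7, −1.35 ± 0.28 for HEM13 and −1.13 ± 0.39 for TIR1. HH108 was therefore lower in the aerobic cytochrome c and higher in the hypoxic forms ANB1 and AAC3, while the hypoxic genes CYC7 and HEM13 were lower.

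In Hh5, where 19.3% of genes were called, CYC7 was at 1920, 1638 and 1248 CPM and TIP1 at 71.7, 117 and 107. Their differences from the ancestor were 2.88 ± 0.78 (edgeR adjusted p = 0.0122) and −4.30 ± 1.26 (0.0179), and CYC1 was higher by 1.03 ± 0.32 (0.0247). Hh8, with 13.3% of genes called, was higher in ROX1 by 1.19 ± 0.37 (edgeR adjusted p = 0.0298). HH5 (3.82%) was lower in CYC7 (−1.80 ± 0.41, edgeR adjusted p = 0.00831). HH4 (16.4%) was higher in AAC3 by 2.03 ± 0.64 (edgeR adjusted p = 0.0271) and lower in MOT3 (−0.66 ± 0.23, 0.0434), but the MOT3 call was lost under total-count scaling (−0.56, edgeR adjusted p = 0.174) and with no filter on low counts (−0.64, 0.0555), and the third colony stood apart. That colony had 69.6 CPM in CYC1 and 1494 in TIP1, against 863 and 692 and against 153 and 154 in the other 2, and without the third colonies AAC3 of HH4 was at 0.88 and was not called.

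Directions were often shared by the lines of a set. All 14 HH SC lines were above the run 1 ancestor in AAC3, HH108 and HH4 with a call, and below it in MOT3, HH4 with a call. All 7 HH X lines were above the run 2 ancestor in CYC1 and below it in ANB1, TIR1 and TIP1. The share of all genes for which every line of a set lay on 1 side was not counted. These directions are therefore not shown to be particular to these genes. AAC3 rested on 7, 2 and 2 reads in the run 1 ancestor libraries. Each set shares its ancestor libraries, so 1 unusual library there would move all its lines together. In simulated data of the size of HH50 against its ancestor 33% of 4-fold and 0% of 2-fold changes were called, so the X lines could hardly pass.

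**Figure D3:**
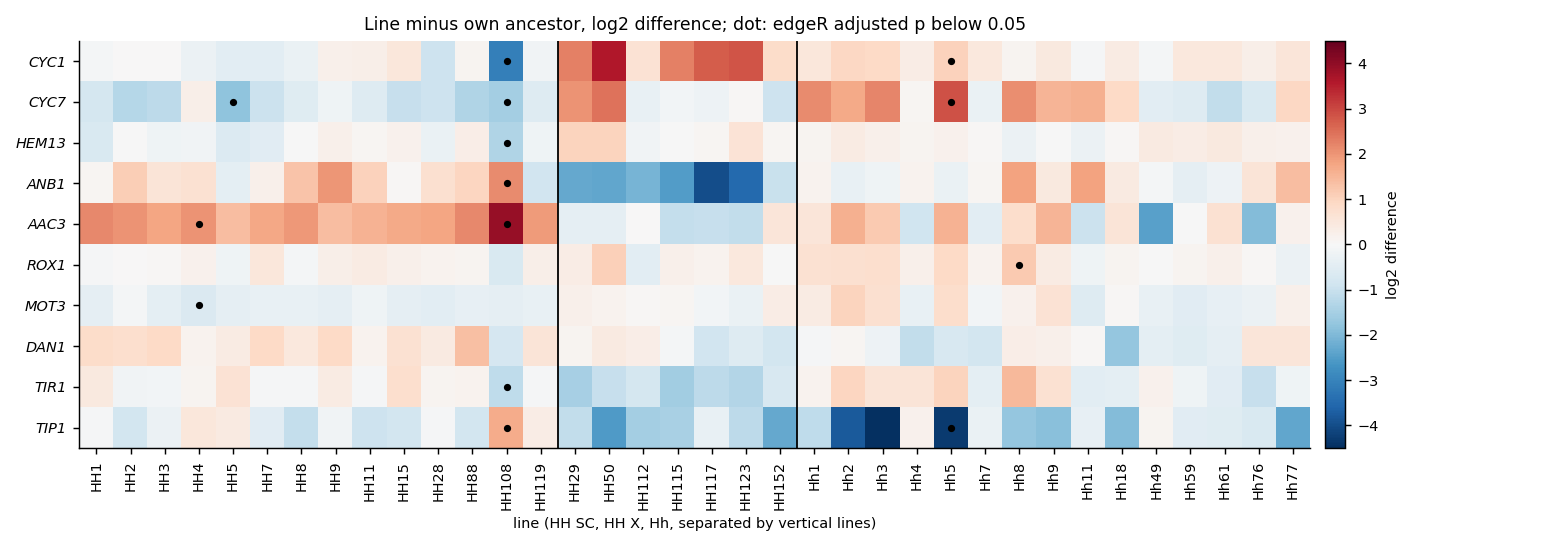
Log2 difference of each of 36 lines from its own ancestor for the 10 genes, on a colour scale from blue (lower) to red (higher), with dots at the 14 pairs that edgeR called. The Hh euploid lines are red in CYC7 and blue in TIP1, and HH108 carries 7 of the dots.

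The Hh ancestor was set against the HH ancestor of run 2. The 2 runs of the HH ancestor differed in a similar share of genes (51.4% called by edgeR), so strain and run are not separated here. CYC1 had 1023, 1202 and 1014 CPM in the 3 libraries of the Hh ancestor and 68.7 and 29.0 in the 2 of the HH ancestor in run 2. The groups did not overlap, as was the case for 71.0% of genes, and 50.0% of 6046 genes were called. CYC1 was higher in Hh by 4.62 ± 0.40 (edgeR adjusted p = 3.2e-06) and HEM13 by 0.94 ± 0.17 (0.000873). ANB1 was lower in Hh (−3.31 ± 0.34, edgeR adjusted p = 1.4e-05), as were AAC3 (−2.79 ± 0.44, 0.000286) and TIR1 (−2.14 ± 0.47, 0.00302). TIP1 (0.67 ± 0.26, edgeR adjusted p = 0.0513), DAN1 (−1.07 ± 0.52, 0.111), MOT3 (0.07 ± 0.23, 0.81) and ROX1 (0.05 ± 0.32, 0.906) were not called. The 5 calls among 10 genes equal the background share. Of the isoform partners, COX5A (3.92), AAC1 (3.62), HMG1 (2.89) and PET9 (1.52) were higher and COX5B (−2.87) lower in Hh by edgeR, and HMG2 (−0.21) was not called.

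These values depended on the run of the HH ancestor. In run 1 CYC1 had 708, 459.5 and 607 CPM, CYC7 had 589, 611 and 1015, ANB1 had 2.69, 3.22 and 3.37, AAC3 had 1.05, 0.339 and 0.306, and TIP1 had 494, 337 and 416. In run 2 CYC7 had 121 and 192 CPM, ANB1 38.9 and 19.4, AAC3 8.98 and 7.15, and TIP1 1446 and 1062. The runs of the same strain overlapped in ROX1 and MOT3 only (68.2% of genes did not overlap). From run 1 to run 2, CYC1 was lower (−3.83 ± 0.38), as were CYC7 (−2.48 ± 0.33) and HEM13 (−1.003 ± 0.17), and AAC3 was higher (3.54 ± 0.50), as were ANB1 (2.99 ± 0.35) and TIP1 (1.35 ± 0.25), with 51.4% of genes called by edgeR. TIR1 (0.87), DAN1 (0.83), MOT3 (−0.54) and ROX1 (−0.45) were not called (edgeR adjusted p of 0.0741 to 0.261). COX5A (−3.97), AAC1 (−2.83) and PET9 (−2.39) were lower and HMG1 (1.00) higher in run 2, and COX5B (−0.03) and HMG2 (0.27) were not called. Reads without a unique alignment were 16.8% to 21.0% of run 1 and 33.9% to 40.4% of run 2 libraries, and the part of this in the result was not tested. Run, library names and colonies cannot be told apart here.

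With run 1 in place of run 2, the strains differed by 0.79 in CYC1 (edgeR adjusted p = 0.0317), by 2.03 in TIP1 (2.6e-05) and by −1.96 in CYC7 (0.000105), which with run 2 was 0.52 ± 0.31 (0.18). AAC3 changed from −2.79 to 0.75 and ANB1 from −3.31 to −0.31 (0.478), neither called. CYC1 higher in Hh and TIR1 lower in Hh were the calls that held with either run.

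**Figure D4:**
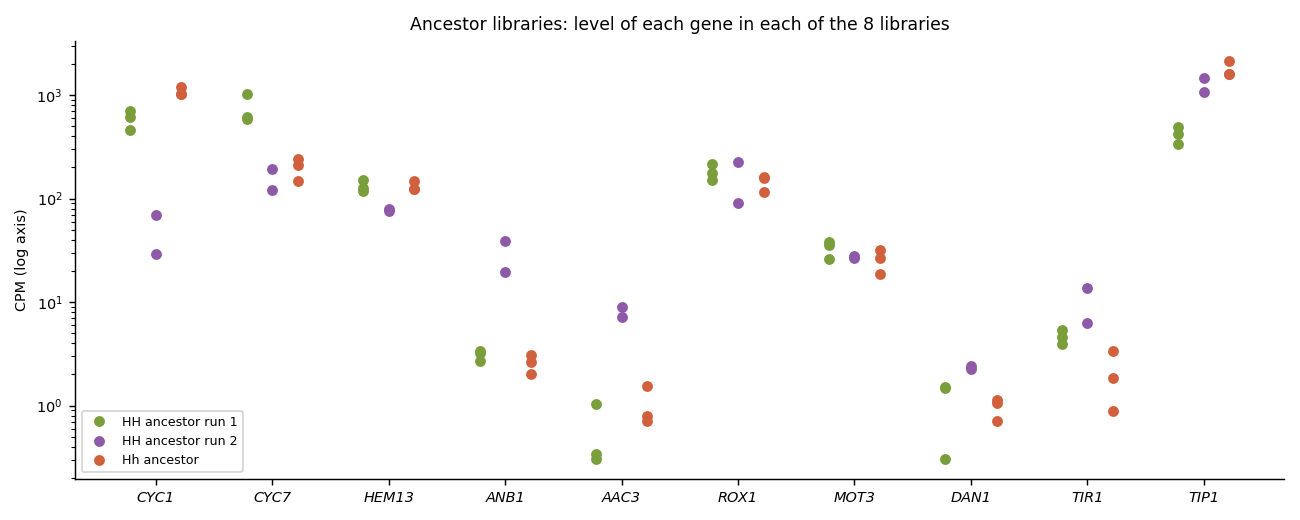
CPM of the 10 genes on a log axis in each of the 8 ancestor libraries (3 HH run 1, 2 HH run 2, 3 Hh). CYC1 lies at 29.0 and 68.7 in HH run 2, at 459.5 to 708 in HH run 1 and at 1014 to 1202 in Hh.

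Over euploid lines, the 5 Hh lines were set against the 2 HH X lines HH50 and HH115, with 46.9% of 6336 genes called. CYC1 was at 580 and 283 CPM in the HH lines, below all 5 Hh lines at 1594 to 2399, and was higher in Hh by 2.28 ± 0.36 (edgeR adjusted p = 0.00112). MOT3 was at 30.8 and 27.4 CPM against 37.4 to 55.9, higher in Hh by 0.73 ± 0.18 (0.00984). DAN1 (−1.36 ± 0.30, edgeR adjusted p = 0.00542) and ANB1 (−0.83 ± 0.27, 0.0333) were lower in Hh. AAC3 (−0.71, edgeR adjusted p = 0.117), HEM13 (0.53, 0.0953), CYC7 (1.08, 0.184), TIR1 (−0.11, 0.781), TIP1 (0.08, 0.951) and ROX1 (0.07, 0.843) were not called. Among isoform partners HMG1 (3.08), COX5A (0.84) and HMG2 (0.72) were higher in Hh by edgeR, and COX5B (−0.96), AAC1 (0.59) and PET9 (−0.12) were not called. With 2 HH lines these calls were fragile: without HH50 DAN1 (−1.12, 0.0642) and ANB1 (−0.65, 0.204) were lost, and HEM13 (1.06, 0.0108) and CYC7 (2.73, 0.0154) were gained. Without HH115 MOT3 was lost (0.64, 0.0877), as was ANB1 (−0.99, 0.0683). Without the third colony of Hh1, MOT3 (0.64, 0.101) and ANB1 (−0.84, 0.0563) were lost. CYC1 was called in each of these fits.

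The spread among colonies was as wide as that among lines for most of the 10 genes. Differences among lines were called for 8 of 10 genes in HH SC, where 67.5% of all genes were called, for 0 of 10 in HH X (0.0978%) and for 8 of 10 in Hh (53.7%). In HH SC the exceptions were MOT3 and ROX1, and in Hh CYC1 and DAN1. In Hh the SD of TIP1 on the log2 scale was 1.41 among line means and 1.57 among the colonies of a line, and that of CYC7 1.29 and 1.07. HEM13 was the steadiest, with 0.21 and 0.23.

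Colonies of 1 line could stand far apart in several of these genes together. In Hh1, CYC7 read 118, 236 and 2808 CPM and TIP1 1401, 983 and 29.5, with ROX1 at 169, 116 and 504 and MOT3 at 23.3, 22.7 and 65.9. The third colony of Hh1 was high in CYC7, ROX1 and MOT3 and low in TIP1, and the first 2 were the reverse. In Hh8, CYC7 read 1220, 341 and 1497 CPM, ROX1 462, 128 and 594, TIP1 58.2, 1477 and 65.0, and ANB1 1.38, 24.3 and 1.83. Here the second colony was the odd one, low in CYC7 and ROX1 and high in TIP1 and ANB1. In Hh5 all 3 colonies were high in CYC7 and low in TIP1.

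In Hh that ordering recurred across lines. It was counted for chosen pairs of members only, and the share over other pairs of genes was not counted. With 3 colonies a line, some such matches arise without any link between genes. Colony number, with which several of these genes shifted in Hh (below), was not set apart in these counts. In 12 of 15 Hh lines the colony highest in CYC1 was the one lowest in TIP1, in 12 ROX1 was highest where TIP1 was lowest, in 12 ROX1 and CYC7 were highest in the same colony, and in 11 CYC7 was highest where TIP1 was lowest. In HH SC it did not: CYC1 was highest where TIP1 was lowest in 5 of 14 lines and highest in the same colony as TIP1 in 6, and CYC7 in 3 and 7. In HH X, TIP1 was lowest where CYC1 was highest in 4 of 7 lines, where CYC7 was in 5 and where ROX1 was in 1. CYC1 and AAC3 were highest in the same colony in 10 of 15 Hh lines, but CYC1 was highest where AAC3 was lowest in 9 of 14 HH SC lines. In HH SC, CYC1 and CYC7 were highest in the same colony in 11 of 14 lines, and CYC1 was highest where ANB1 was lowest in 10, against 6 of 15 in Hh. In HH X, ANB1 and AAC3 were highest in the same colony in 7 of 7 lines. Over the 36 lines, each centred on its experiment and name series, MOT3 and TIP1 had a correlation of −0.80, CYC1 and HEM13 of 0.79, AAC3 and MOT3 of 0.73, ROX1 and CYC7 of 0.71, CYC7 and MOT3 of 0.63 and CYC1 and ANB1 of −0.41, as a description over points that share libraries and depth. Without the doubted libraries, over 34 lines, these were −0.80, 0.79, 0.75, 0.68, 0.63 and −0.35.

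The third colonies of the HH X lines stood apart as a set. CYC1 read 28.4 to 67.0 CPM in these 7 colonies and was the lowest of its line in each, whereas the medians of the first and second colonies were 516 and 132. ANB1, AAC3 and MOT3 were highest in the third colony in 6 of 7 lines, with AAC3 at 7.77 to 18.4 CPM. Reads that did not align uniquely had medians of 22.6%, 20.3% and 46.0% in the first, the second and the third colonies, and the part of this in the levels was not tested. Without these colonies, an alternative chosen after seeing the data, no HH class difference was called, AAC3 and MOT3 still differed between the experiments, and over euploid lines CYC1 was at 1.75 (edgeR adjusted p = 0.00551) and ANB1 at −0.22 (0.573). In Hh, the third colonies were highest in AAC3 and in TIR1 in 10 of 15 lines, in ROX1 and MOT3 in 9, in CYC1 in 8 and in CYC7 in 7. They were lowest in TIP1 in 8 lines and in ANB1 in 9. Medians in the first, the second and the third Hh colonies were 888, 1012 and 205 CPM for TIP1 and 1182, 1230 and 2013 for CYC1. Reads that did not align uniquely had medians of 8.83%, 9.87% and 17.1% in these colonies. The part of colony number in the Hh ordering of colonies above was not tested.

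**Figure D5:**
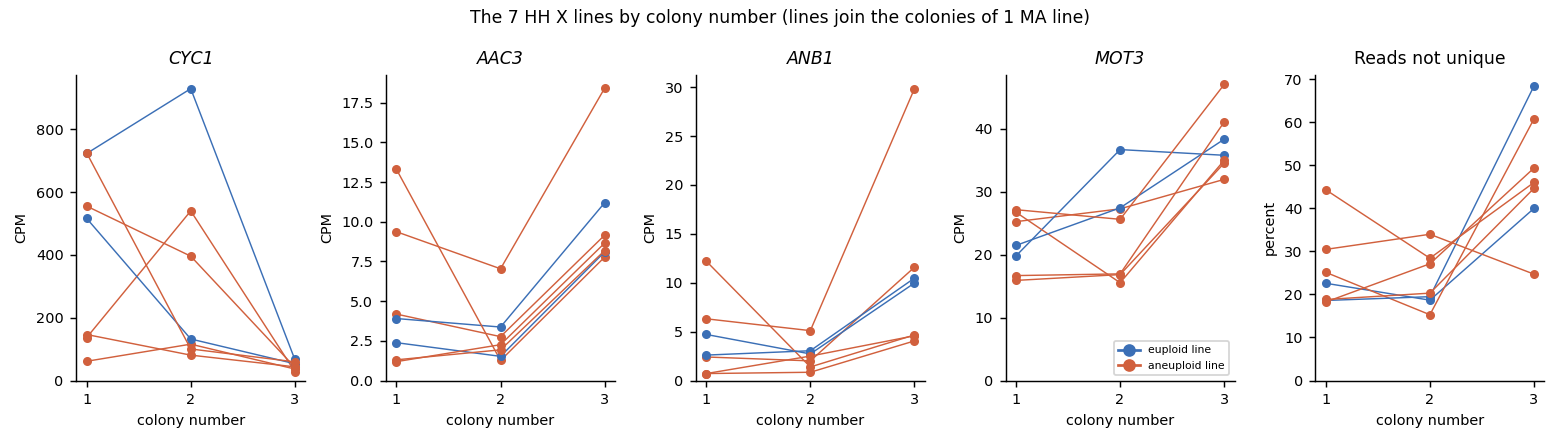
Values of the 7 HH X lines by colony number, with lines joining the colonies of 1 line, for members in CPM and for the percent of reads that did not align uniquely. CYC1 lies at 28.4 to 67.0 CPM in the third colonies.

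Members on chromosomes gained whole were set beside the euploid lines of their set, as a description. In proportion, 3 copies would raise a gene by 0.58 on the log2 scale. The SD of CYC7 among euploid lines was 1.66 in HH X (n = 2) and 0.54 in Hh (n = 5). This comparison therefore cannot show whether a gene followed its copy number, and that was not tested. CYC7 and TIR1 lie on chromosome V, which by label has 3 copies in HH117, HH123, Hh4 and Hh49, although colony 1 of HH123 is nearer to 2, and in none of these lines did either gene exceed the highest euploid line of its set. CYC7 was at 238 CPM in Hh4 and 131 in Hh49, below all 5 euploid lines. ROX1, on chromosome XVI, was at 379 CPM in Hh8 with 4 copies, 0.53 above the euploid mean on the log2 scale where proportion would give 1.0, and at 102 CPM in HH112 with 3 copies, the lowest of the 7 HH X lines.

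The genes whose levels ran most like each member over the 36 lines, again centred and as a description, were taken from 5603 genes that were not members. For CYC1 they were MDH1 and MIR1 (r of 0.94 each), for CYC7 YBL086C (0.92) and YNR014W (0.90), for HEM13 YDR444W (0.84) and EHT1 (0.81), and for ANB1 RPP2B and RPL23A (0.73 each). AAC3 ran most like AAP1 (0.89) and NUP49 (0.88), ROX1 like MIX17 (0.86) and PIC2 (0.85), and MOT3 like STV1 (0.87) and WWM1 (0.86). DAN1 ran like YML122C and YML083C (0.67 each), TIR1 like TVS1 (0.87) and FIT1 (0.81), and TIP1 like NPC2 (0.86) and YCP4 (0.83). Without the doubted libraries each of these stayed within 0.02 of its value except those of ANB1 (0.66 and 0.68) and NPC2 (0.82).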

How the data were processed

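The members and gene lists were chosen with earlier results of these data known. Every member is named in each comparison. Of the other listed genes, those past the threshold in a class comparison and the isoform partners are named, and so are the 2 genes most correlated with each member among those with a median of at least 5 CPM.

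Whole-number counts per gene were made by the authors with HTSeq 0.6.1pl. Per the submitters' processing notes, reads were handled with FastQC 1.8.0, TopHat2 2.1.1, Trim Galore 0.4.4 and SAMtools 1.3.1 on sacCer3, which is the R64 build, and DESeq2 was used. The deposited FPKM table holds values normalised for length and depth, for which the notes give Cufflinks 2.2.1 with its Cuffnorm and Cuffdiff. Strand-specific counting is not stated in the labels. No member overlaps another gene of the R64 annotation, and overlaps with features of the count files that did not match it were not checked. Of 7126 features, 6086 matched the R64 annotation, from which positions and promoter bases were taken. Of the count files, 104 correlated best with their own FPKM column and 11 of the other 12 with a column of the same line or ancestor run. Titles placed 3 libraries in HH2, although 2 descriptions name other lines. No libraries of a group agreed within sampling noise (lowest chi-square per degree of freedom 7.04 at 50 counts or more).

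Rows without a gene were left out of library sizes. With 4129372 to 12148296 reads in genes, members near 1 CPM rest on few reads a library and their levels are imprecise. Counts were summed per line and tested with edgeR 4.0.16 in R 4.3.3 (robust quasi-likelihood fit, TMM, filterByExpr), two-sided, with a name series term in HH. Ancestors, and each line against its ancestor, were fitted on libraries. DESeq2 1.42.0 was an alternative. Ratios used a pseudocount of 0.5, with exact permutation in Hh and 100000 resamples in HH. On simulated counts, 86% of 2-fold and 99% of 4-fold changes were called in the Hh class comparison and 62% and 97% in the difference of classes.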

Additional observations from a re-analysis of the deposited data

Results flagged for a closer look

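Of 50 groups of 4 to 10 lines examined over the 10 genes, 7 held a line far from the others of its group. The rule marks about 1 in 20 groups of normal, unrelated values. It was applied here to CPM without logs, in genes that share lines, so the 7 are not measured against chance. In Hh aneuploid lines Hh8 had 379 CPM of ROX1, the heme-dependent repressor, against 125 to 181 in the other 9. It carries 4 copies of the chromosome that holds ROX1, but its colonies read 462, 128 and 594 CPM. Hh8 also had 6.63 CPM of TIR1, an anaerobic wall mannoprotein on another chromosome, against 0.877 to 3.16. In HH SC aneuploid lines HH108 had 9.41 CPM of AAC3 against 1.47 to 2.84, 114 CPM of ROX1 against 202 to 227, and 1395 CPM of TIP1 against 227 to 541. HH4 had 975 CPM of CYC7 against 199 to 502 in the other HH SC euploid lines, with 324 CPM in colony 3 and 1332 and 1236 in colonies 1 and 2. HH29 had 528 CPM of CYC7 against 82.7 to 160 in the other HH X aneuploid lines, with 1046, 323 and 69.7 CPM in its 3 colonies.

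In 2 genes the class difference was not the same in the experiments. The difference of Hh minus HH was −2.05 on the log2 scale for AAC3 and −0.82 for MOT3, both called by edgeR. Without the third colony of Hh1 the call on AAC3 was lost (−1.94, edgeR adjusted p = 0.075).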

How the results depend on the processing

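Of the values for single genes under other settings, 1758 kept their direction and side of the threshold, 88 lost a call, 34 gained one and 62 changed sign, and the cause was not tested. In Hh, 611 genes were called between classes, with 1109 under DESeq2, 918 with a copy number offset, 53 without the doubted libraries (1 member in place of 4), and 26 (without Hh5) to 1547 (without Hh8) when a line or colony number was left out (1 to 7 members). With each of 45 Hh libraries left out in turn, chosen after seeing the data, 0 to 1249 genes were called (median 582): 0 genes and 0 members without the third colony of Hh1, 108 without Hh8 colony 2, 141 without Hh9 colony 2, 341 without Hh59 colony 1, 352 without Hh4 colony 2, 940.0 without Hh4 colony 3, 1008 without Hh8 colony 3, 1115 without Hh9 colony 1 and 1249 without Hh1 colony 2. In HH, 0 genes became 1 under DESeq2. For the difference of classes, 324 became 536 under DESeq2, 148 without the doubted libraries, 210 without the third colonies of the HH X lines, and 94 (without Hh2) to 759 (without Hh8) with a line or colony number left out, and 30.0 without the third colony of Hh1 (1 member in place of 2, and 3 without Hh1). Leaving out a line or colony number also gave 1838 to 3037 genes and 2 to 4 members between euploid lines of the strains (2970 and 4), 1720 to 3418 genes between ancestors (3025), and 1836 to 3426 between the HH runs (3105). Among lines it gave 1805 to 3556 genes and 2 to 7 members in HH SC (4080 and 8), 0 to 4 genes in HH X (6), and 348 to 1978 genes and 2 to 4 members in Hh (3275 and 8). With 2 colonies a line, 8 to 9 member and line pairs (14) and 3235 to 4604 gene and line pairs (7040) were called.

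The rule for pairing, a correlation over 0.1 in every pair, was not met. Over 315 pairs in HH SC and 360 in Hh it could hardly be met, so it does not show that numbers are unrelated. Deviations of same-numbered libraries had a median correlation of 0.009 in HH SC, 0.14 in Hh and 0.109 between ancestors. For other numbers the medians were 0, −0.086 and −0.055, and in Hh 55.8% of same-numbered pairs were over 0.1. In HH X the number marked a partly shared set, with 0.303 against −0.16 for other numbers and 76.6% of pairs over 0.1. With the replicate number as a block, 23 member and line pairs were called (22 under DESeq2 without a block), and no strain or run call on a member changed. The block moved the genes called among lines from 3275 to 4017 in Hh and from 4080 to 4023 in HH SC.

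Values of ratios under leave-out were, in Hh, 1.25 to 1.65 for CYC1 to CYC7, 1.36 to 1.74 for PET9 to AAC3, 1.28 to 1.73 for COX5A to COX5B and −0.16 to 0.12 for HYP2 to ANB1. The exact permutation call on PET9 to AAC3 in Hh was lost without Hh5 or Hh9 (adjusted p = 0.0639 in each), one on CYC1 to CYC7 was gained without Hh8 (0.0213) or Hh11 (0.044), and one on COX5A to COX5B without Hh8 (0.00799). In HH they were −0.28 to 0.24 for CYC1 to CYC7 and −0.25 to 0.28 for HYP2 to ANB1, which was −0.0054 with a pseudocount of 1. Uncalled differences that changed sign with a line or colony number left out spanned, in Hh, −0.084 to 0.0037 for HEM13 and −0.35 to 0.17 for DAN1, and in HH, −0.16 to 0.22 for HEM13, −0.71 to 0.0017 for CYC7, −0.050 to 0.22 for TIR1, −0.37 to 0.023 for CYC1, −0.29 to 0.030 for DAN1 and −0.22 to 0.10 for MOT3. In the difference of classes they spanned −0.24 to 0.071 for HEM13, −0.35 to 0.63 for ANB1 and −0.33 to 0.19 for DAN1. Between strains they spanned −0.51 to 0.56 for TIP1, −0.38 to 0.22 for TIR1 and −0.28 to 0.52 for ROX1 over euploid lines, and −0.082 to 0.24 for MOT3 and −0.53 to 0.99 for ROX1 over ancestors.

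Leaving out the third X colonies, FPKM values for HYP2 and the settings of the run difference were chosen after seeing the data. Other settings that changed a sign gave, without the doubted libraries, 0.0063 for DAN1 in Hh. In HH, HEM13 was −0.062 and TIR1 −0.073 without the name series term, HEM13 was −0.26 in X lines alone and −0.031 without the third X colonies, and CYC1 was 0.11 and DAN1 0.14 in SC lines alone. The difference of classes in DAN1 was −0.17 with total-count scaling, which moved the median of all genes to −0.18, and −0.016 with TMM from unaltered chromosomes. ROX1 over euploid lines was −0.28 without the third X colonies. With run 1 in place of run 2, the ancestors differed by 0.75 in AAC3 and −0.066 in HEM13, which lost their calls of −2.79 and 0.94, by −1.96 in CYC7, which gained one, and by −0.46 in MOT3 and −0.40 in ROX1, which had none. They differed under total-count scaling, which moved the median of all genes to −0.17, by −0.084 in MOT3 and −0.11 in ROX1.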
